A study of Mus musculus with 10 samples.

Results

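The genes of glycolysis and of the cellular response to low oxygen were followed in cultured mouse bone marrow cells. The members were 40 listed names, taken by mouse gene symbol, and 39 of them matched a gene among the 47311 genes of the series. The name Kdm3a_excluded matched no gene. The 39 genes comprise 22 glycolysis members and 17 hypoxia members. The glycolysis members are 2 membrane transporters, 16 glycolytic enzymes and 4 regulators of flux. The hypoxia members are 5 factors of oxygen sensing and 12 targets of the response. All 39 passed the filter on low counts and were tested, among 17810 genes tested in all.

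The cells were Lin-Kit+ bone marrow cells, sorted for GFP, expanded in medium with IL3, IL6 and SCF and read as polyA RNA. They overexpressed full-length ASXL2, a chromatin-associated partner of the BAP1 deubiquitinase, or 1 of 3 mutant forms of ASXL2, or carried an empty vector. Each of these 5 groups had 2 libraries, so that 10 libraries were read. The sources used here do not name the vector, its promoter, the mutations or the animals. No label states whether both libraries of a group were grown separately, so p-values reflect only how far these libraries vary, possibly for technical reasons. The labels put each library in batch 1 or batch 2, with no word on what a batch was. The names of the deposited tables of 4 mutant libraries carry another mutant number than their labels, and 2 of these also carry another batch. The members are therefore described by the batch of the names, the mutants are pooled, and libraries are called by their label. By the names, each batch held 1 full-length library, 3 mutant libraries and 1 empty vector library. Batch 2 held the full-length replicate 2, mutant 2 replicate 2, mutant 3 replicates 1 and 2 and empty vector replicate 2. Batch 1 held full-length replicate 1, mutant 1 replicates 1 and 2, mutant 2 replicate 1 and empty vector replicate 1. Mutant values are given in this order.

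Asxl2 itself was at 514 TPM in the full-length library, 408, 389 and 374 TPM in the mutant libraries and 28.7 TPM in the empty vector library of batch 2. In batch 1 it was at 709 TPM in the full-length library, 877, 1045 and 602 TPM in the mutant libraries and 30.1 TPM in the empty vector library. TPM scales reads by transcript length and library, so levels of different genes can be compared. Total estimated counts lay between 52422686 and 79320702 per library, and Mir6236 alone took between 3.9% and 10.9% of the TPM. The labels name Lin-Kit+ cells, and markers of mast cells and basophils summed to between 59267 and 72084 TPM in every library, with 14 of 15 at 1 TPM or more on average. Of the marker lists of other cells, 11 of 12 neutrophil, 9 of 10 lymphoid, 9 of 10 stromal and 8 of 14 monocyte and macrophage markers were under 1 TPM. By contrast, 6 of 11 erythroid and 4 of 9 megakaryocyte markers were at 1 TPM or more, and the megakaryocyte list summed to between 970 and 1686 TPM, mostly from Itga2b. The first principal component, with 41.2% of the variance, separated the 10 libraries by the batch of the names. In bulk RNA, fewer cells of a type and less RNA per cell cannot be told apart.

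Glycolysis splits glucose into pyruvate in the cytosol and yields ATP without oxygen. Lactate dehydrogenase and the monocarboxylate transporters then dispose of the pyruvate as lactate, or pyruvate enters the mitochondria, where pyruvate dehydrogenase turns it into acetyl-CoA unless a pyruvate dehydrogenase kinase blocks that step. HIF1A and its relative EPAS1 are transcription factors that pair with ARNT, and when oxygen is plentiful the prolyl hydroxylases EGLN1 and EGLN3 mark them for destruction. Many glycolysis genes are themselves HIF targets, and HIF dimers bind DNA at short sites that contain ACGTG or GCGTG. Mast cells and their precursors are known to use glycolysis when activated.

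The promoters of 4 members are printed because these had the smallest p-values among the members called in the mutants against the empty vector with or without a block. They are Pfkm and Pfkp, which encode subunits of phosphofructokinase, Slc2a1, the glucose transporter GLUT1, and Pdk1, a pyruvate dehydrogenase kinase. Each runs 5′ to 3′ on the gene's strand, from 250 bases before to 50 after a RefSeq start in GRCm38.p6, taken nearest to the start of the transcript with the most TPM. That transcript carried between 37.2% (Pdk1) and 85.4% (Pfkm) of its gene's TPM. The capitals mark the letters ACGTG or GCGTG read on either strand, and matches on opposite strands can overlap.
Pfkm (chr15:98108221-98108520, plus strand): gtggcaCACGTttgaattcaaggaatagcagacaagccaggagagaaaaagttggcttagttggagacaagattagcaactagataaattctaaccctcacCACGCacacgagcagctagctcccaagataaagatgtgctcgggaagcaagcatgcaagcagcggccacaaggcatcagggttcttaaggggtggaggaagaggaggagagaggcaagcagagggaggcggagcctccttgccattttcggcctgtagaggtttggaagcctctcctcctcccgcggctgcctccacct
Pdk1 (chr2:71872974-71873273, plus strand): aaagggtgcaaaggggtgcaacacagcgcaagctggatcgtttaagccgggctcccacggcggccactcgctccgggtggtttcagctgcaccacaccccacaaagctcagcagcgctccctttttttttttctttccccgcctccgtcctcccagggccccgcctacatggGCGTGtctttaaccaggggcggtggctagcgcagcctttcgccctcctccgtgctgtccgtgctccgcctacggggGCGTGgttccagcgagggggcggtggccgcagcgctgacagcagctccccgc
Slc2a1 (chr4:119108495-119108794, plus strand): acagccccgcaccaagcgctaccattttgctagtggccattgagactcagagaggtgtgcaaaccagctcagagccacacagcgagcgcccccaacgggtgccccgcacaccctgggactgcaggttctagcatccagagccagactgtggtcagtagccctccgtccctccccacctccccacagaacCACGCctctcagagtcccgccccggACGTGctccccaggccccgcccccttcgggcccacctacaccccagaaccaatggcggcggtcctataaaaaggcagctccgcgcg
Pfkp (chr13:6648722-6649021, minus strand): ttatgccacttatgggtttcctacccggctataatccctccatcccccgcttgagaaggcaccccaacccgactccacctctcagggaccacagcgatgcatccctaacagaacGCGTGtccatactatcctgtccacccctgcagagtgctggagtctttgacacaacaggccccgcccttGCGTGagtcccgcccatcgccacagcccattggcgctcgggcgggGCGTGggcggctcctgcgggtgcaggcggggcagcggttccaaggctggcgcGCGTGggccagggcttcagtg
The Pfkp window held 4 of these matches and the other windows 2 each. A promoter window was found for 35 of the 39 members, and 43 of their 52 windows (82.7%) held at least 1 match. Among all 32851 windows of this length the share was 43.8%, with ACGTG in 19.6% and GCGTG in 32.4%. A match of these letters is not a binding site.

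**Figure D1:**
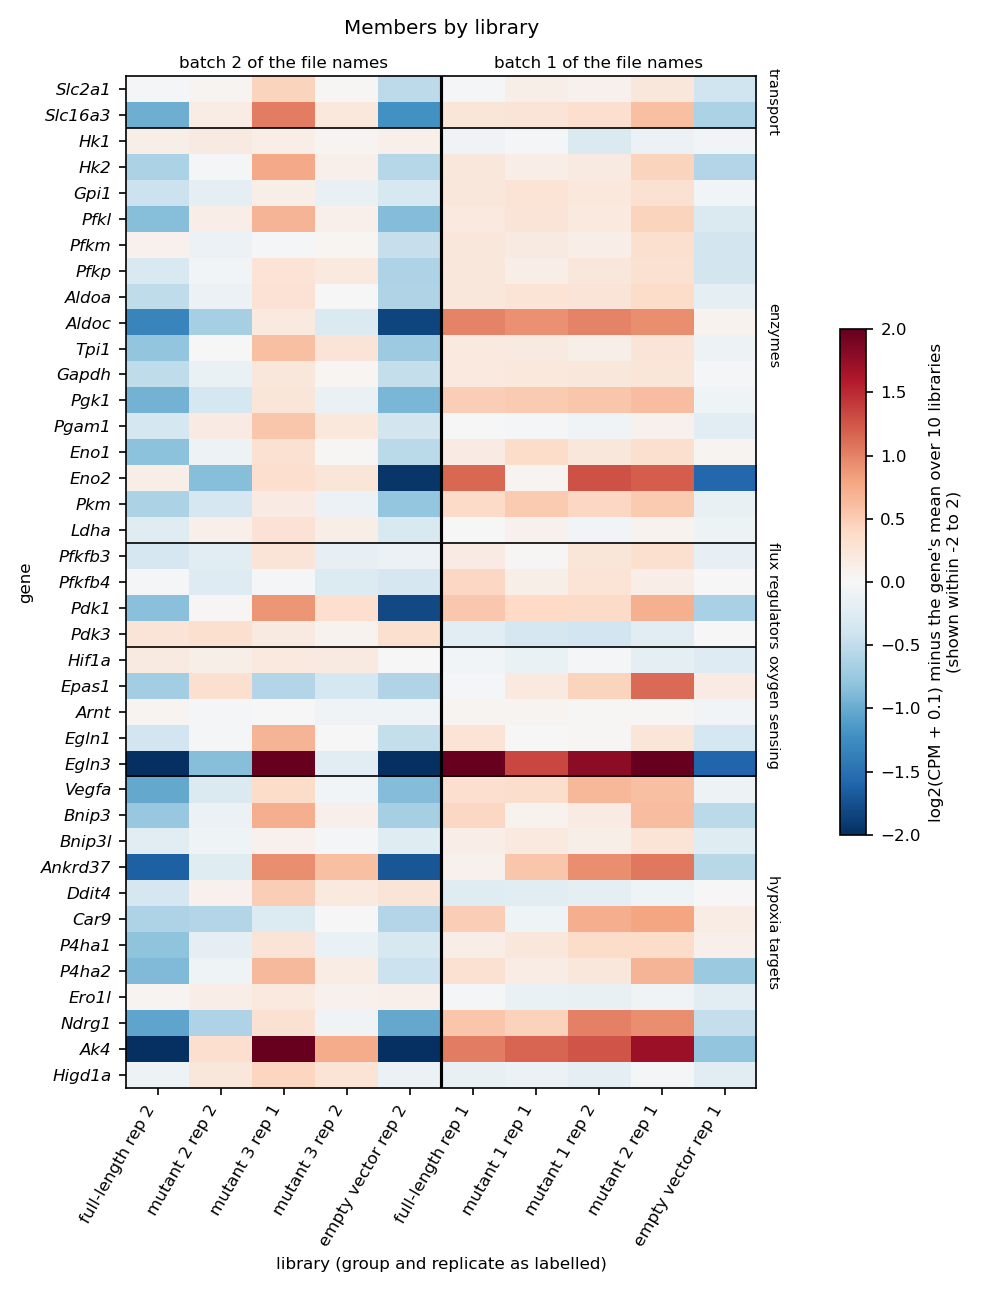
Heat map of the 39 members (rows, by role) in the 10 libraries (columns, by batch of the names and then full-length, mutant and empty vector). Colour gives log2(CPM + 0.1) minus the gene's mean over the libraries, within -2 to 2. The empty vector libraries and the full-length library of batch 2 are the palest or bluest columns for most rows, and mutant 3 replicate 1 is the reddest of batch 2.

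A larger share of the glycolytic enzymes than of all genes tested was lower in batch 2. In TMM-scaled CPM, counts scaled to library size, 16 of the 39 members fell and 6 rose in batch 2 against batch 1, by edgeR's quasi-likelihood test with class in the fit at an adjusted p under 0.05. Of all genes tested, 25.9% fell and 26.6% rose, so the share of members that fell stood above that of all genes, while the share that rose was below it. The median member had a log2 fold change of -0.28, against -0.04 over all genes. Of the 16 enzymes, 9 fell and 1 rose, and of the 17 hypoxia members 6 fell and 4 rose. With the batch of the labels in place of that of the names, the same test called 0 of 39 members, with 21 at an unadjusted p under 0.05 and a median of -0.38. With the 2 libraries left out whose label and name give different batches, 19 members fell and 6 rose. The shares of all genes given here are those of the first fit and do not apply to these alternatives. Markers of other cells moved with the batches too. Megakaryocyte markers summed to between 970 and 1167 TPM in batch 2 and between 1329 and 1686 TPM in batch 1, and 4 of the 7 tested fell. Of the lymphoid markers 3 of 4 tested fell, and of the mast cell and basophil markers 7 of 15 rose and 2 fell. Their part in the result was not tested.

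Aldoc, the brain-type aldolase, had the largest fall among the enzymes. It read 33.7 CPM in the full-length library, 53.4, 96.9 and 69 CPM in the mutants and 23.5 CPM in the empty vector library of batch 2. In batch 1 it read 167 CPM in the full-length library, 159, 168 and 161 CPM in the mutants and 88.8 CPM in the empty vector library. Within each class batch 2 lay below batch 1, although mutant 3 replicate 1 of batch 2 lay above the empty vector library of batch 1. The log2 fold change was -1.53 ± 0.25 (SE, n = 5 libraries each; adjusted p = 0.00199).

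Pgk1, phosphoglycerate kinase, which makes the first ATP of the pathway, averaged 430 ± 152 CPM in batch 2 and 744 ± 129 CPM in batch 1 (SD, n = 5 each). Its log2 fold change was -0.83 ± 0.16. Pkm, the pyruvate kinase gene, averaged 1245 ± 332 CPM in batch 2 and 1968 ± 336 CPM in batch 1, with a log2 fold change of -0.67 ± 0.10. Eno1 (enolase 1) changed by -0.45, Gpi1 (glucose-6-phosphate isomerase) by -0.38, Aldoa (aldolase A) by -0.36, Gapdh by -0.34 and Pfkm by -0.20. Eno2, the neuronal enolase, is the ninth enzyme that fell, by 0.88 on the log2 scale at an adjusted p of 0.0498. Pfkfb4, a bifunctional enzyme that sets the level of fructose-2,6-bisphosphate, was the only member with every batch 2 library below every batch 1 library, a pattern held by 14.5% of all genes. It read 18.6, 15.8, 18.4, 15.6 and 15 CPM in batch 2 and 25.3, 20.6, 22.9, 20.7 and 19.1 CPM in batch 1.

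Among the hypoxia targets, Ndrg1 fell by 0.97, Car9 (carbonic anhydrase 9) by 0.85, Vegfa (the endothelial growth factor VEGF-A) by 0.73, P4ha1 (a collagen prolyl hydroxylase subunit) by 0.46 and Bnip3l (a mitophagy receptor) by 0.19 on the log2 scale. Epas1 also fell, by 1.15, but it was barely present, at between 0.0234 and 0.147 TPM. Against these, Hif1a rose. It read 238, 227, 241, 238 and 211 CPM in batch 2 and 202, 190, 203, 183 and 174 CPM in batch 1, in the order full-length, mutants and empty vector. Every batch 2 library lay above every batch 1 library, with a log2 fold change of 0.28 ± 0.04 (adjusted p = 0.000153).

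The same separation held for Pdk3, another pyruvate dehydrogenase kinase, which read 78.1, 80.8, 73.7, 68.3 and 81.2 CPM in batch 2 and 55.6, 51.3, 49.8, 55.9 and 65.5 CPM in batch 1. Its log2 fold change was 0.46 ± 0.05. Hk1 (hexokinase 1) and Ero1l (an oxidase of the endoplasmic reticulum), each at 0.23, were the other members with batch 2 wholly above batch 1, which 15.3% of all genes showed. Higd1a, a mitochondrial protein induced in hypoxia, and Ddit4, an inhibitor of mTORC1 signalling, rose by 0.29 each. Higd1a rose mostly in the mutants, at 38.2 to 44 CPM in batch 2 and 28.5 to 31.8 CPM in batch 1. Its full-length libraries read 30.5 and 29.5 CPM and its empty vector libraries 30.3 and 28 CPM. Ddit4 was lower in batch 2 in the full-length libraries, at 103 against 110 CPM. It was higher in the mutants (138 to 184 against 112 to 123 CPM) and the empty vector (156 against 131 CPM). Most of the 6 rises were not called on the TPM scale, in a fit that also used another test. By limma on log2(TPM + 1) only Pdk3 was still higher at the threshold while 20 members were lower, with 1139 genes higher and 6063 lower in all. With upper quartile scaling 5 members rose and 19 fell, the median of all genes was at -0.13, and 3315 genes rose and 5951 fell.

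Expressed as a share of all TPM, the 16 enzymes together took 0.562% in the full-length library, 0.645%, 0.816% and 0.763% in the mutants and 0.526% in the empty vector library of batch 2. The shares in batch 1 were 0.896% in the full-length library, 1.04%, 0.971% and 1.01% in the mutants and 0.804% in the empty vector library. No class overlapped between the batches, and within each batch the mutants were highest and the empty vector lowest.

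The levels spanned a wide range on the TPM scale. Gapdh averaged 1794 TPM over the 10 libraries, Aldoa 1388 TPM, Ldha (lactate dehydrogenase A) 930 TPM, Pkm 902 TPM, Eno1 756 TPM and Gpi1 528 TPM. Then came Pgk1 at 451 TPM, Tpi1 (triosephosphate isomerase) at 401 TPM, Ero1l at 347 TPM, Pgam1 (phosphoglycerate mutase) at 335 TPM, Hk1 at 202 TPM and Pfkp at 180 TPM. Neighbours in this order had overlapping ranges over the libraries, except that Hk1 (172 to 228 TPM) lay wholly below Pgam1 (250 to 423 TPM). Of the factors that sense oxygen, Hif1a averaged 62.7 TPM, Egln1 25 TPM and Arnt 19.4 TPM, against 2.46 TPM for Egln3 and 0.0574 TPM for Epas1. The testis enzymes Pgk2 and Aldoart1 and the liver and red cell gene Pklr averaged under 0.01 TPM, and Ldhb 0.0881 TPM. Other testis enzymes were higher, with Aldoart2 at 0.0304 TPM, Ldhc at 0.745 TPM and Gapdhs at 2.32 TPM.

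The mutants against the empty vector gave the clearest pattern of direction. In 32 of the 39 members all 3 mutant libraries lay above the empty vector library in both batches, which 16.6% of all genes did, and in 1 member (Pdk3) all lay below, which 15.1% of all genes did. The 32 comprised 19 of 22 glycolysis members and 13 of 17 hypoxia members. The exceptions were Hk1, Pfkfb3, Pdk3, Arnt, Ddit4, Car9 and Ero1l. The median log2 fold change of the members was 0.59, against -0.00 over all genes. The direction was wider than the calls. The fit without a block called only Slc2a1, where 1.47% of all genes rose and 0.275% fell. In that fit 20 members had an unadjusted p under 0.05, as did 2021 of all 17810 genes tested. With the batch of the names as a block, 9 members rose and none of the 39 fell, where 6.82% of all genes rose and 3.99% fell. The count fell to 1 without empty vector replicate 1 and to 2 without empty vector replicate 2, and it was 16 without mutant 3 replicate 1. DESeq2 in the same design called 23 higher and 1 lower. The shares of all genes given here are those of edgeR on all 10 libraries. They apply neither to DESeq2 nor to the fits with a library left out. Of the 9, GENCODE M21 (GRCm38) places Slc2a1 at chr4:119108711-119137983, Pfkm at chr15:98092589-98132451, Pkm at chr9:59656368-59679375 and Pdk1 at chr2:71873224-71903858 on the plus strand. It places Pfkp at chr13:6579768-6648777, Aldoa at chr7:126795234-126800751, Eno2 at chr6:124760053-124769673, Bnip3l at chr14:66985239-67008877 and Ankrd37 at chr8:45996902-46005707 on the minus strand. With the batch of the labels as a block 5 members rose, where 1.62% of all genes rose and 0.264% fell. Summed marker levels of other cells differed between constructs and empty vector too. Monocyte and macrophage markers summed to 60.3 and 64.3 TPM in the full-length, between 47.3 and 69.1 TPM in the mutant and 91.3 and 109 TPM in the empty vector libraries. Erythroid markers summed to 141.5 TPM in the full-length library, between 112 and 142 TPM in the mutants and 89.3 TPM in the empty vector library of batch 2. In batch 1 they summed to 79.9 TPM in the full-length library, between 58.7 and 127 TPM in the mutants and 51.05 TPM in the empty vector library. Of the 7 erythroid markers tested, 2 rose in the mutants with the batch of the names as a block, with a median of 0.88, and 1 of 10 monocyte and macrophage markers fell, with a median of -0.37. The part of these cells in the result was not tested.

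**Figure D2:**
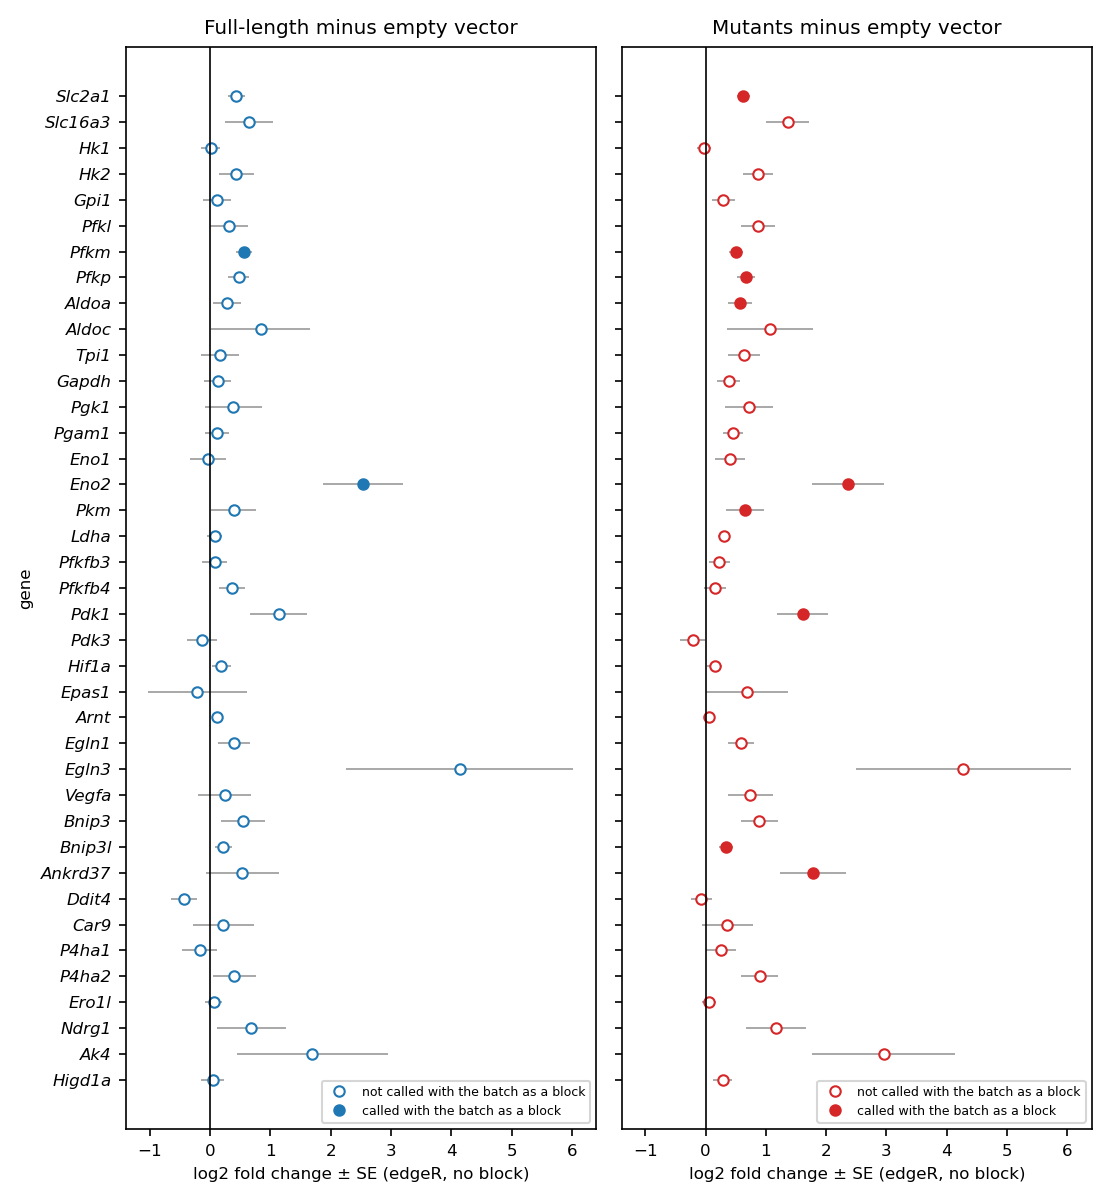
Log2 fold changes of the 39 members with standard errors from edgeR without a block, for full-length minus empty vector (left, n = 2 against 2 libraries) and for mutants minus empty vector (right, n = 6 against 2). Filled points were called with the batch of the names as a block, 2 on the left and 9 on the right, and most points lie right of zero in both panels.

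Slc2a1 carries glucose across the plasma membrane. It read 149 CPM in the full-length library, 158, 207 and 154 CPM in the mutants and 105 CPM in the empty vector library of batch 2. Batch 1 gave 150 CPM in the full-length library, 164, 161 and 178 CPM in the mutants and 115 CPM in the empty vector library. All 8 construct libraries lay above both empty vector libraries, and batch 2 did not differ from batch 1 at the threshold (-0.00 ± 0.08). The log2 fold change of mutants against empty vector was 0.63 ± 0.12 (n = 6 and 2; adjusted p = 0.0277), and the adjusted p was 0.0075 with the batch of the names as a block. The call was lost by limma on log2(TPM + 1) (0.122), with only the 6 libraries whose name matches their label (0.24), without empty vector replicate 1 (0.215), without empty vector replicate 2 (0.248) or without mutant 2 replicate 1 (0.0692), over a range of adjusted p from 1.27e-07 to 0.248 across all alternatives. Between 31% and 40.7% of the TPM of Slc2a1 was assigned to a transcript other than its leading one. Between 59.3% and 69% of its TPM was on coding transcripts.

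Slc16a3 encodes MCT4, which exports lactate. It read 48 CPM in the full-length library, 105, 194 and 110 CPM in the mutants and 41.1 CPM in the empty vector library of batch 2. The values of batch 1 were 112 CPM in the full-length library, 114, 120 and 145 CPM in the mutants and 61.2 CPM in the empty vector library. The full-length library was near the empty vector in batch 2 and near the mutants in batch 1. Mutants against empty vector gave 1.36 ± 0.35, called with the batch of the labels as a block (adjusted p = 0.0226) but not with that of the names (adjusted p = 0.0731).

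Phosphofructokinase commits sugar to glycolysis, and 2 of its 3 genes were called with the batch of the names as a block. Pfkm, the muscle-type subunit, read 34.8 CPM in the full-length library, 30.3, 32.1 and 33.9 CPM in the mutants and 23.9 CPM in the empty vector library of batch 2. Its batch 1 libraries read 38.4 CPM in the full-length library, 37.3, 36.1 and 41.2 CPM in the mutants and 25.6 CPM in the empty vector library. All construct libraries were above both empty vector libraries, with a log2 fold change of 0.50 ± 0.07 in the mutants (adjusted p = 0.00129). Pfkp, the platelet-type subunit, read 301 CPM in the full-length library, 357, 448 and 427 CPM in the mutants and 241 CPM in the empty vector library of batch 2. In batch 1 it read 434 CPM in the full-length library, 406, 433 and 457 CPM in the mutants and 288 CPM in the empty vector library, and the mutants gave 0.68 ± 0.11 (adjusted p = 0.00625). Pfkl, the liver-type subunit, gave 0.89 ± 0.16 with the batch of the labels as a block (adjusted p = 0.0317). Pfkp supplied between 71.3% and 78% of the TPM of the 3 genes.

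Other enzymes called with the batch of the names as a block were Aldoa, Eno2 and Pkm. Aldoa rose by 0.58 ± 0.13 (adjusted p = 0.0212). It read 930 CPM in the full-length library, 1220, 1626 and 1331 CPM in the mutants and 875 CPM in the empty vector library of batch 2. Batch 1 gave 1542 CPM in the full-length library, 1603, 1580 and 1698 CPM in the mutants and 1160 CPM in the empty vector library. The mutants of batch 2 overlapped those of batch 1 although the empty vector libraries lay apart. Eno2 read 6.23 CPM in the full-length library, 3.13, 7.28 and 6.84 CPM in the mutants and 1.42 CPM in the empty vector library of batch 2. The values of batch 1 were 12.8 CPM in the full-length library, 5.97, 14 and 13.4 CPM in the mutants and 1.86 CPM in the empty vector library. It had the largest fold change of the enzymes, 2.30 ± 0.49 in the mutants (adjusted p = 0.0249), from between 97 and 1021 counts a library. Only between 33.6% and 56.9% of its TPM was assigned to coding transcripts. Pkm gave 0.66 ± 0.14 (adjusted p = 0.0168).

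The remaining enzymes were not called in the mutants by edgeR on all 10 libraries, without a block or with either block. Without a block the mutants against empty vector gave 0.87 for Hk2 (hexokinase 2), 1.07 ± 0.71 for Aldoc, 0.72 ± 0.40 for Pgk1, 0.63 for Tpi1, 0.46 for Pgam1, 0.41 for Eno1, 0.38 for Gapdh, 0.31 for Ldha and 0.30 for Gpi1. In each of these 9 all mutant libraries lay above the empty vector library of their batch. Hk1 was the exception at -0.03 ± 0.12. Hk2 read 48.8 CPM in the full-length library, 74.3, 128 and 81.1 CPM in the mutants and 51.2 CPM in the empty vector library of batch 2. Its batch 1 libraries read 88.6 CPM in the full-length library, 83.2, 85.6 and 104 CPM in the mutants and 50.4 CPM in the empty vector library.

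**Figure D3:**
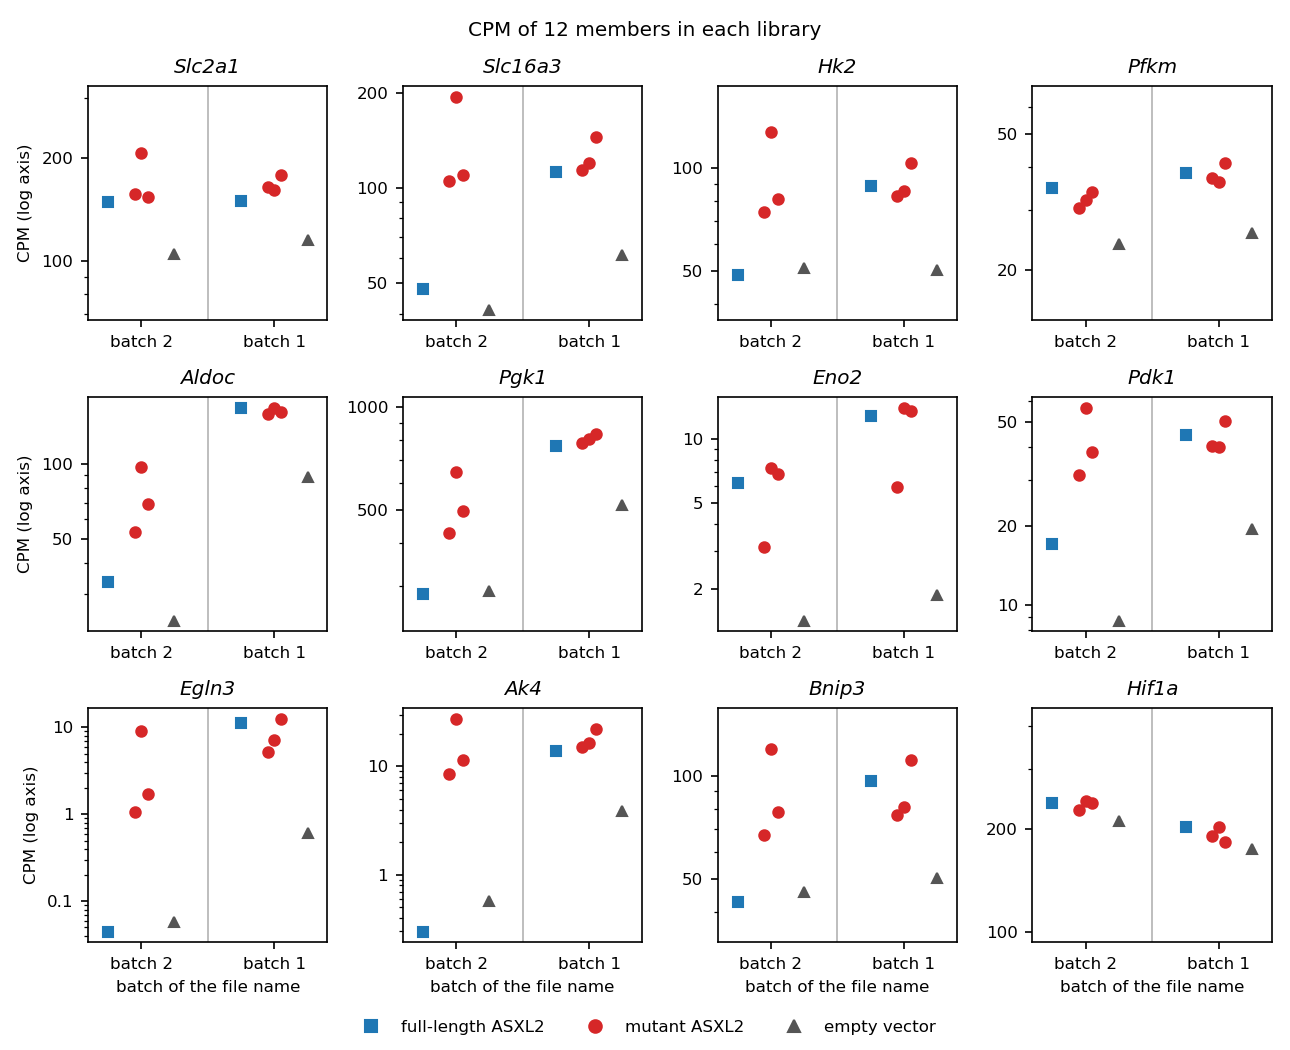
CPM (log axis) of 12 members in each of the 10 libraries, by batch of the names and with full-length (squares), mutant (circles) and empty vector (triangles) libraries side by side. The mutants lie above the empty vector of their batch in all 12 panels, while the full-length library of batch 2 lies below its empty vector library for Hk2, Pgk1, Egln3, Ak4 and Bnip3.

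The flux regulators did not move as a group. Pdk1, whose product blocks the conversion of pyruvate to acetyl-CoA, read 17.1 CPM in the full-length library, 31.2, 56.8 and 38.5 CPM in the mutants and 8.68 CPM in the empty vector library of batch 2. In batch 1 it read 44.7 CPM in the full-length library, 40.3, 40.1 and 50.4 CPM in the mutants and 19.5 CPM in the empty vector library. The construct libraries were above the empty vector of their batch throughout, with 1.70 ± 0.42 in the mutants (adjusted p = 0.0475 with the batch of the names as a block and 0.0159 with that of the labels). Only between 17.6% and 26.2% of the TPM of Pdk1 was assigned to its coding transcript. Pdk3 lay below the empty vector in all 8 construct libraries and gave -0.23 ± 0.07 (adjusted p = 0.0614). Pfkfb3 and Pfkfb4, the bifunctional enzymes, gave 0.23 ± 0.17 and 0.16 ± 0.18 in the fit without a block.

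Within some pairs of isoenzymes the shares differed as well, on the TPM scale and with no test. Pdk1 made up 15.3% of Pdk1 and Pdk3 together in the full-length library, 24.7%, 38.2% and 31.4% in the mutants and 8.85% in the empty vector library of batch 2. Batch 1 gave 40.8% in the full-length library, 36.3%, 38% and 42.5% in the mutants and 19.2% in the empty vector library. Every construct library was above the empty vector of its batch. Hk2 made up 4.95% of both hexokinases in the full-length library, 7.04%, 12.1% and 8.16% in the mutants and 5.19% in the empty vector library of batch 2. The values of batch 1 were 10.1% in the full-length library, 9.36%, 11.1% and 11.7% in the mutants and 5.72% in the empty vector library. Here the full-length library of batch 2 lay below its empty vector library. The share of Pfkfb4 in Pfkfb3 and Pfkfb4 did not follow. It was 31.2% in the full-length library, 24.2%, 21.0% and 24.3% in the mutants and 23.5% in the empty vector library of batch 2, with the mutants on both sides of the empty vector. All 3 mutants of batch 1, at 27.3%, 26.8% and 22.6%, lay below the empty vector library at 28.9%, as did the full-length library at 28.8%. The Pkm transcript with its own internal exon at chr9:59675029-59675195 carried between 9.03% and 12.3% of the TPM of the 2 main transcripts, while the exon of the other lies at chr9:59675568-59675734 (GRCm38, plus strand).

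**Figure D4:**
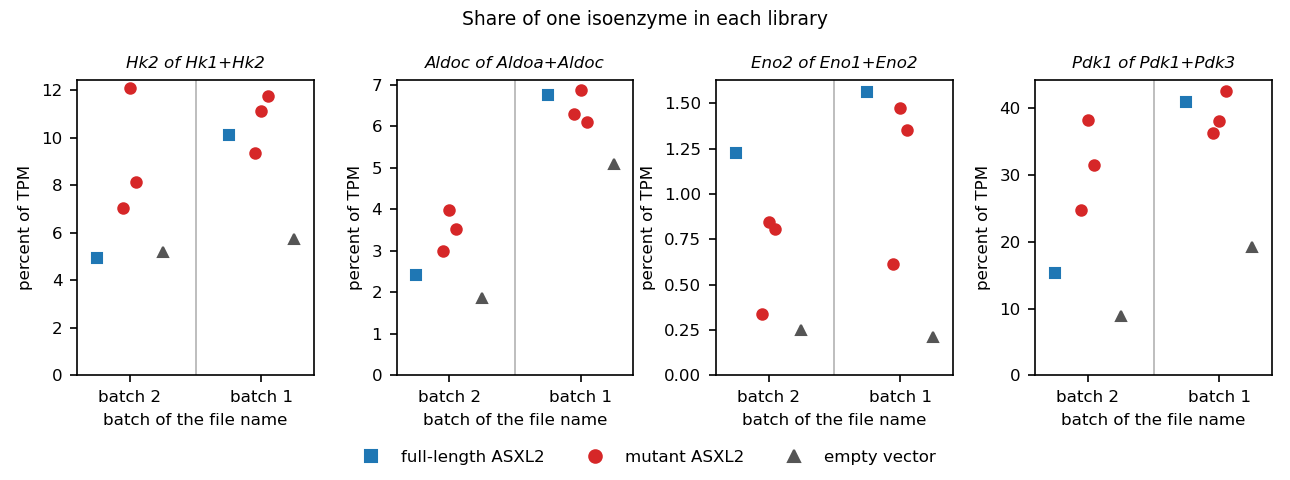
Share of 1 isoenzyme in the summed TPM of its pair (percent, from 0) in each library, by batch of the names and with full-length (squares), mutant (circles) and empty vector (triangles) libraries. Mutants lie above the empty vector of their batch in all 4 panels, and the full-length library of batch 2 lies below the empty vector for Hk2, between the empty vector and the mutants for Aldoc and Pdk1, and above both for Eno2.

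The regulators of oxygen sensing differed among themselves. Hif1a gave 0.15 ± 0.13 and Arnt 0.06 ± 0.06 in the mutants against the empty vector without a block, and neither was called. Egln3, a hydroxylase that is itself a HIF target, varied most of all members. It was listed with 3 counts in the full-length library, 64, 699 and 133 counts in the mutants and 4 counts in the empty vector library of batch 2. Batch 1 held 886 counts in the full-length library, 350, 454 and 704 counts in the mutants and 32 counts in the empty vector library. The full-length library therefore stood with the empty vector in batch 2, where both were at a few counts, and with the mutants in batch 1, at 11.1 CPM against 5.2 to 12.6 CPM. The mutants gave 4.27 ± 1.78 (adjusted p = 0.385), which was not called. Egln1, the main oxygen sensor, gave 0.59 ± 0.22, with 104 CPM in mutant 3 replicate 1 and between 64.2 and 76.9 CPM in the other mutant libraries.

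Of the 12 hypoxia targets, 2 were called in the mutants with the batch of the names as a block. Bnip3l gave 0.34 ± 0.07 (adjusted p = 0.0119), and between 27.2% and 35.7% of its TPM was on coding transcripts. It read 77.1 CPM in the full-length library, 84, 94.1 and 86.8 CPM in the mutants and 74.7 CPM in the empty vector library of batch 2. In batch 1 it read 97.5 CPM in the full-length library, 101, 96.1 and 108 CPM in the mutants and 74.9 CPM in the empty vector library. Ankrd37, an ankyrin repeat protein, gave 1.87 ± 0.43 (adjusted p = 0.0277), with between 8.89% and 48.0% of its TPM on its coding transcript. It read 1.04 CPM in the full-length library, 2.87, 6.6 and 5.24 CPM in the mutants and 0.978 CPM in the empty vector library of batch 2. Batch 1 gave 3.66 CPM in the full-length library, 5.06, 6.61 and 7.19 CPM in the mutants and 2.3 CPM in the empty vector library. Both genes had all constructs above the empty vector of their batch.

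Ak4, a mitochondrial adenylate kinase, was not called at 2.95 ± 1.19 (adjusted p = 0.362). It read 0.298 CPM in the full-length library, 8.52, 27.7 and 11.4 CPM in the mutants and 0.569 CPM in the empty vector library of batch 2. The values of batch 1 were 13.8 CPM in the full-length library, 15.2, 16.3 and 22.3 CPM in the mutants and 3.86 CPM in the empty vector library. The mutants were above the empty vector in both batches, and the full-length library in batch 1 only. The values of the other targets without a call were 1.17 for Ndrg1, 0.90 for P4ha2 (a collagen prolyl hydroxylase subunit), 0.89 for Bnip3 (a mitophagy receptor), 0.74 for Vegfa, 0.36 for Car9, 0.28 for Higd1a, 0.26 for P4ha1, 0.06 for Ero1l and -0.07 for Ddit4. Bnip3 read 42.9 CPM in the full-length library, 67, 120 and 78.4 CPM in the mutants and 45.7 CPM in the empty vector library of batch 2. Its batch 1 libraries read 96.7 CPM in the full-length library, 76.6, 81.2 and 111 CPM in the mutants and 50.2 CPM in the empty vector library.

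Full-length ASXL2 against the empty vector called no member without a block (0 of 39, edgeR), where 0.685% of all genes rose and 0.0674% fell. At an unadjusted p under 0.05 there were 5 members and 1477 of all 17810 genes tested. DESeq2 called 2 members, and the shares of all genes given here are those of edgeR on all 10 libraries, not of DESeq2. With the batch of the names as a block 2 members rose, Pfkm (0.56 ± 0.08, adjusted p = 0.00311) and Eno2 (2.46 ± 0.54, adjusted p = 0.0469), where 3.85% of all genes rose and 1.22% fell. Leaving out 1 library in that fit gave 1 to 4 calls, with 4 without mutant 3 replicate 1. In 18 of the 39 members the full-length and mutant libraries all lay above the empty vector of their batch, which 13.1% of all genes did, and in 1 (Pdk3) all lay below, which 11.9% of all genes did. The 18 comprised 13 of 22 glycolysis members and 5 of 17 hypoxia members. The median log2 fold change of the members was 0.28, but it was -0.16 without full-length replicate 1 and 0.58 without full-length replicate 2.

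The 2 full-length libraries differed from each other by batch. In batch 2 the full-length library was above the empty vector in 20 of 39 members, with a median difference in log2(CPM + 0.1) of 0.01. Of all 17810 genes tested it was above in 8749. In batch 1 it was above in 35 of 39 members, with a median difference of 0.40, and in 8502 of all genes. For the mean of the mutants the same differences were 0.67 in batch 2, above in 38 of 39, and 0.44 in batch 1, above in 36 of 39. Of all 17810 genes this mean was above in 8877 in batch 2 and in 8691 in batch 1. Each batch held 1 full-length and 1 empty vector library, so these are differences between single libraries. A test of the difference of the full-length effect between the batches, added after these values were seen, called 0 of 39 members with edgeR, 1 of them at an unadjusted p under 0.05, and DESeq2 called none, with 7 under 0.05. In that test 0.00561% of all genes were higher and 0.0112% lower. By edgeR 1016 of all 17810 genes tested were at an unadjusted p under 0.05. The median of the members was -0.39, with 5 of 39 above zero. For the effect of any construct, the difference between the batches was called in 0 of 39 members, with none at an unadjusted p under 0.05 and none called by DESeq2, and 0% of all genes were called higher or lower. By edgeR 1545 of all 17810 genes tested were there at an unadjusted p under 0.05. The median of the members for this difference was 0.06.

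**Figure D5:**
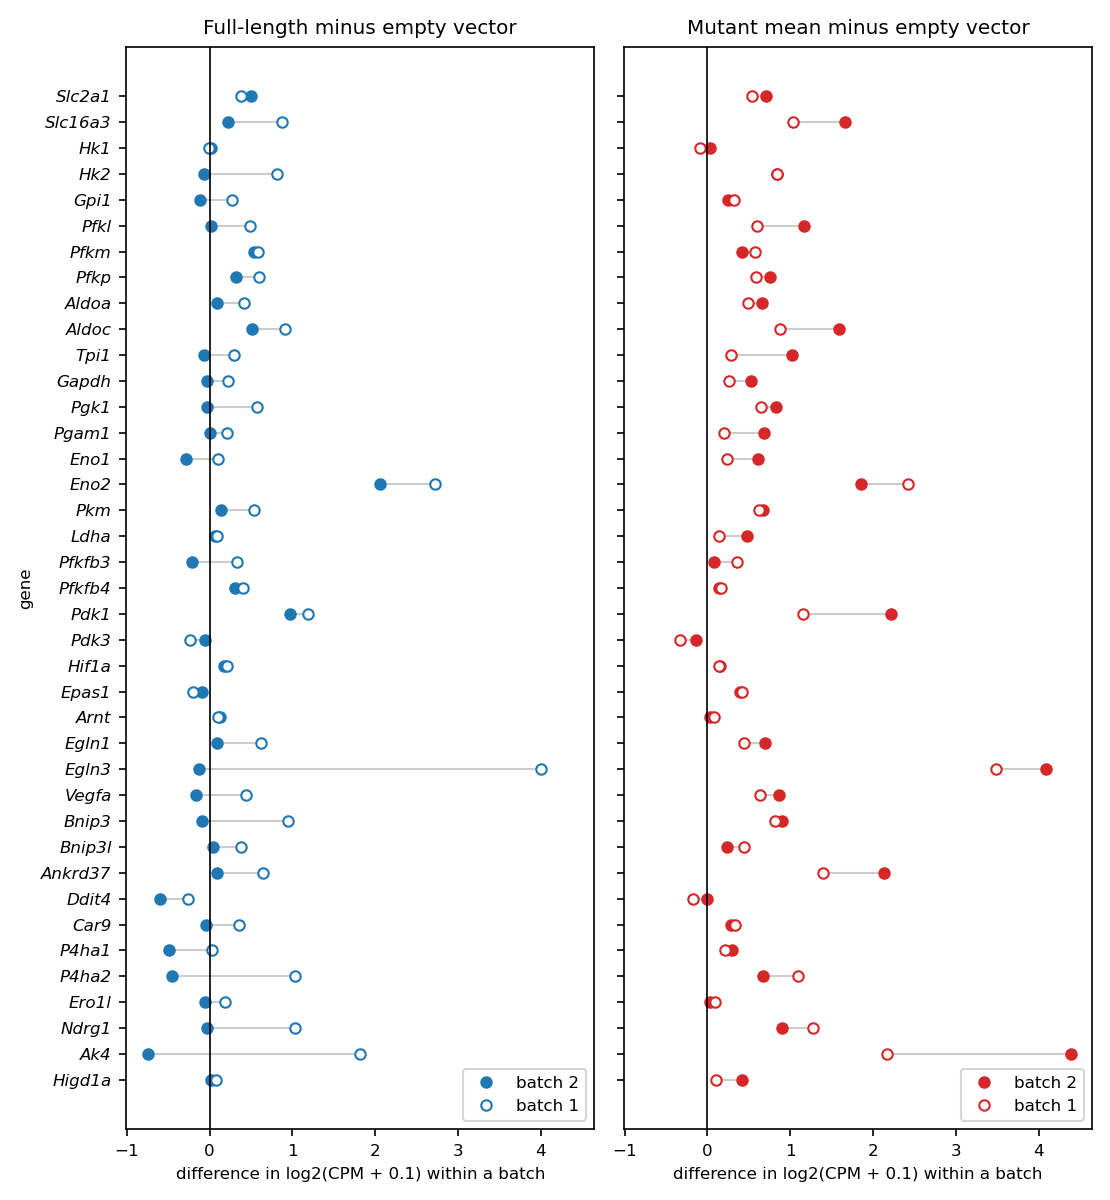
Differences in log2(CPM + 0.1) within each batch for the 39 members, for full-length minus empty vector (left, 1 library each) and the mean of 3 mutant libraries minus empty vector (right). Filled points are batch 2 and open points batch 1. On the left most filled points lie near zero and left of the open ones, with medians of 0.01 and 0.40, and on the right both batches lie right of zero for most members.

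The batch 2 libraries also differed in which was extreme. Mutant 3 replicate 1 was the highest of the 5 libraries of batch 2 in 32 of 39 members, against 22.4% of all genes. The full-length library and the empty vector library were each lowest in 18 of 39 members, against 21.8% and 23.8% of all genes. In batch 1 mutant 2 replicate 1 was the highest in 25 members and the empty vector library the lowest in 34, against 18.9% and 29.7% of all genes. Without mutant 3 replicate 1, the mutants against the empty vector called 16 members with the batch of the names as a block, and the median was 0.50. The shares of all genes called, given above, do not apply to that fit.

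The mutants against full-length ASXL2 gave no call among the 39 members with edgeR, and none with DESeq2. Of all genes 0% were called higher and 0% lower, and with the batch of the names as a block 0.185% were higher and 0.213% lower, none of them members. At an unadjusted p under 0.05 there was 1 member without a block (Ankrd37, 1.25) and there were 11 with the batch of the names as a block. Of all 17810 genes tested, 720 were under 0.05 without a block and 2003 with it. The median log2 fold change of the members was 0.26, but it was -0.02 without full-length replicate 2 and 0.68 without full-length replicate 1.

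A list of 49 further genes of glucose metabolism had 43 tested, and 23 (53.5%) rose and 5 (11.6%) fell in batch 2 against batch 1, where 26.6% of all genes rose and 25.9% fell. As given above, far fewer genes were higher in batch 2 on the TPM scale, and these rises were not examined on that scale. G6pdx, the entry enzyme of the pentose phosphate pathway, averaged 189 CPM in batch 2 and 119 CPM in batch 1, a log2 fold change of 0.67 ± 0.05. Slc16a1, the lactate and pyruvate carrier MCT1, rose by 0.65, Pgd (6-phosphogluconate dehydrogenase) by 0.31 and the pyruvate dehydrogenase genes Dld by 0.30, Pdha1 by 0.29, Dlat by 0.27 and Pdhb by 0.20, while Pdk2 fell by 0.56. The list's median in the mutants against the empty vector was 0.02. With the batch of the names as a block 4 rose in the mutants, Slc16a7 by 0.72, Pgm1 (phosphoglucomutase) by 0.45, Pygl (glycogen phosphorylase) by 0.33 and Pdk2 by 0.32, and Pdp1, a pyruvate dehydrogenase phosphatase, fell by 0.29. These are 9.30% and 2.33% of the list, where 6.82% of all genes rose and 3.99% fell.

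A list of 51 further hypoxia response genes had 42 tested. In batch 2 against batch 1, 9 (21.4%) rose and 15 (35.7%) fell, where 26.6% of all genes rose and 25.9% fell. Hmox1 (heme oxygenase 1) rose by 0.74, while Narf fell by 0.57 and Ankzf1 by 0.42. With the batch of the names as a block 9 (21.4%) rose and 2 (4.76%) fell in the mutants against the empty vector, where 6.82% of all genes rose and 3.99% fell, and the list's median was 0.23. Plod2, a collagen lysyl hydroxylase, averaged 23.5 CPM in the mutants and 9.78 CPM in the empty vector, a log2 fold change of 1.24 ± 0.16. Rragd, a GTPase of amino acid sensing, rose by 1.61 at a low level, 1.89 CPM in the mutants and 0.618 CPM in the empty vector. The transcription factors Maff and Arntl rose by 1.45 and 0.55, and Narf by 0.50. Car12, another carbonic anhydrase, fell by 0.53 and Angptl4, an inhibitor of lipoprotein lipase, by 0.59. Maff was called without a block as well (adjusted p = 0.0381), at a low level of 0.932 CPM in the mutants and 0.342 CPM in the empty vector. Changes from the empty vector were called in the full-length libraries too, by edgeR with the batch of the names as a block. There 3 genes of the list (7.14%) rose and 1 (2.38%) fell, where 3.85% of all genes rose and 1.22% fell. Plod2 changed by 0.86, Maff by 1.40, Slc6a8 by 0.53 and Car12 by -0.77 (adjusted p = 0.0262, 0.0282, 0.00495 and 0.000689). The changes in Plod2, Maff and Car12 were thus not particular to the mutants.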

How the data were processed

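Each library came with a table of transcripts. Per the submitters' processing notes, kallisto and DESeq2 were used with mm10; their versions and roles are not stated there. Per the file headers, the deposited estimated counts and TPM are those of kallisto, which shares a read among transcripts of similar sequence. No strand setting is stated.

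Of 115088 transcripts, 114200 (99.2%) matched GENCODE M21 and were summed to genes, with their deposited estimated counts, then rounded. Aldoa belongs to 2 gene identifiers, and the minor one was kept apart. Genes were tested with edgeR 4.0.16 (R 4.3.3, robust quasi-likelihood, TMM, default filter with 10 counts) on all 10 libraries and 17810 genes, with Benjamini-Hochberg adjustment over all of them and a threshold of 0.05. A library detected between 15624 and 17240 genes at 10 counts, and below that counting error is large. The batch comparison had class in the fit, and the construct comparisons had no block. Blocks, DESeq2 1.42.0, other scalings and filters, limma 3.58.1 on log2(TPM + 1) and leaving out libraries were alternatives. The scripts were tested on simulated data.

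Replicate numbers are the batches of the labels, which pairs the samples. The deviations of same-numbered libraries correlated at 0.491 to 0.578 among empty vector, full-length and mutant 2, and at -0.145 to 0.0169 in the other pairs. Members, gene lists and tests were chosen with earlier results of these data known. Named were members called in any fit, those whose constructs and empty vector did not overlap within batches, the 12 with the highest TPM, and at most 8 called genes of each further list. Other genes are examples chosen after their values were seen. Promoters are from RefSeq (GRCm38.p6).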

Additional observations from a re-analysis of the deposited data

Results flagged for a closer look

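In 1 mutant library Egln1, the main oxygen-sensing hydroxylase, lay apart from the others. Mutant 3 replicate 1 had 104 CPM, and its gap to the nearest of the other 5 mutant libraries was 0.685 of the whole range, above Dixon's limit of 0.625 for 6 libraries. It was the only such case among the 39 members, each tested in the mutant libraries, and chance alone would give about 1 case in 20, or about 2 in 39, so that a single case is no more than chance gives.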

How the results depend on the processing

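Between the batches 22 members were called. The count was 12 with only the 6 libraries whose name matches their label, 14 with no class term and 0 with the batch of the labels, where Ddit4 stood at -0.0037, against 0.29; leaving out 1 library gave 17 to 28. In the mutants against the empty vector 1 member was called. The count was 10 with DESeq2, 2 with no filter, 0 by limma on log2(TPM + 1) or log2(TPM + 0.1), 0 with only the 6 matched libraries and 3 with only the libraries of the 2 classes. Leaving out 1 library gave 0 to 4. It was 0 without empty vector replicate 1, empty vector replicate 2 or mutant 2 replicate 1, 3 without either full-length replicate and 4 without mutant 2 replicate 2. With the replicate block it was 5 by the batch of the labels, 9 by that of the names, 12 by that of the names without the 2 libraries of another batch, and 24 with DESeq2 and the block of the names. With that block and 1 library left out it was 1 without empty vector replicate 1, 2 without empty vector replicate 2, 7 without mutant 2 replicate 1, 8 without mutant 1 replicate 1 or mutant 3 replicate 2, 9 without mutant 1 replicate 2, 10 without mutant 2 replicate 2, 12 without either full-length replicate and 16 without mutant 3 replicate 1. For full-length against the empty vector the count of 0 became 2 with DESeq2, 2 with the replicate block by the batch of the names, 7 with DESeq2 and that block, and 4 with that block without the 2 libraries of another batch. With that block and 1 library left out it was 1 to 4, with 2 without mutant 1 replicate 1 or mutant 2 replicate 2 and 4 without mutant 3 replicate 1. The shares of all genes called, given above, were those of edgeR with TMM on all 10 libraries. They do not apply to the other fits counted here. The causes were not tested. Mutants against full-length and both differences between batches had 0 calls throughout; leaving out an empty vector library gave no value for these differences. The median of the members lay between -0.46 and -0.13 for the batches, 0.39 and 0.74 for the mutants and -0.16 and 0.58 for full-length against the empty vector. The 32 members with all mutants above the empty vector, against 16.6% of all genes, became 28 by the batch of the labels, against 12.2%. The count was 24 on the TPM scale, against 10.3% of all genes, and 32 without the 2 libraries of another batch, against 21.0%. The fits that join the block of the names with DESeq2 or with libraries left out, and these last counts, were chosen after seeing the data. Each batch held 1 full-length and 1 empty vector library, so effects within a batch have no replicates, and genes at a few counts such as Egln3 and Ak4 in batch 2 carry large counting error.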
